A study of Mus musculus with 36 samples.

Results

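CDK inhibitors and pocket proteins restrain the cell cycle. A set of 10 genes was followed through heart development. It held the CIP/KIP inhibitors Cdkn1a, Cdkn1b and Cdkn1c, the INK4 inhibitors Cdkn2c and Cdkn2d, and the pocket protein genes Rb1, Rbl1 and Rbl2. It also held the p53-linked regulators Ccng1 and Rgcc, which are neither. The genes were chosen by symbol, with every probe set of each symbol, which gave 20 of the 45101 probe sets and 10 of the 20701 genes of the array. Hearts of OF1 mice, an outbred strain, were profiled daily between E10.5 and E19.5, in young adult mice (10 weeks) and in old adult mice, whose age is 14 months in the labels and 10 months in the study's methods. No stage carried a treatment or a modified allele. Each of the 12 stages had 3 arrays, 36 in all, labelled female, male and mixed from E12.5 on and all mixed at E10.5 and E11.5.

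In a dividing cell, cyclin-dependent kinases phosphorylate the pocket proteins, which then release E2F transcription factors and let genes of DNA replication be read. INK4 proteins bind CDK4 and CDK6 and keep them from D cyclins, whereas CIP/KIP proteins bind whole cyclin-CDK complexes. Heart muscle cells divide in the embryo and largely leave the cell cycle after birth. Cdkn1c lies in an imprinted domain and is read mainly from the maternal copy.

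The values are log2 intensities, in which a difference of 1 is a doubling. They describe 1 probe set across stages and do not rank genes against each other. Each gene was read from its lead probe set, the one with the highest mean over all arrays. Differences were tested in limma over all probe sets and called at an adjusted p under 0.05. Arrays were of whole heart tissue, in which fewer cells of a type and less RNA per cell cannot be told apart. Of the 20 probe sets, 15 had at least 1 stage mean above 5, the level that the study's methods took as expressed, and 5 had none.

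The samples carried the markers of heart. The troponin gene Tnnt2 had a stage mean of 12.38 at E10.5 and of 12.48 in young adult hearts, and of 4 liver markers measured none had a stage mean above 5, although the extraction protocol in the labels names liver. The hybridization controls are transcripts of bacterial and bacteriophage genes added to every labelled sample. Their level was 9.68 to 10.35 on the E10.5 arrays and 10.97 to 11.39 on the E19.5 arrays. It was 12.03 to 12.43 on the young adult arrays and 11.16 to 11.56 on the old adult arrays. These ranges did not overlap between E10.5, E19.5 and young adult arrays, nor between young and old adult arrays. Control level and stage can therefore not be told apart in those comparisons, also in the fits with this level as a term. The titles of the E16.5 female array and of all arrays from E17.5 to E19.5 open with a prefix that the earlier titles lack. Adult titles open with another form of it. Title form and stage can therefore not be told apart in any comparison with E10.5, nor between E19.5 and adult arrays. The array median over probe sets with a mean above 5 also differed between stages. It was 0.34 lower at E19.5 than at E10.5, 0.53 lower in young adult hearts than at E10.5 and 0.14 higher in old than in young adult hearts.

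Of the 10 members, 8 had a promoter window in RefSeq (assembly GRCm38.p6), from 250 bases before to 50 bases after the gene start. Cdkn1c and Rb1 had no window in the source used here and were not searched. Cores of the E2F site (TTTCCCGC, TTTGGCGC and TTTCGCGC, both strands) and the cell cycle homology region (TTTGAA, both strands) were searched in these windows, since E2F and pocket protein complexes act through such elements. An E2F core was present in 1 of the 8 members, Rbl1, and in 1.84% of all 32851 promoter windows. For TTTCGCGC alone the share was 0.323%. The cell cycle homology region was present in 1 member, Rbl2, and in 17.9% of all windows. Both matches are shown with the motif in capitals, on the strand of the gene. The Rbl1 match began 18 bases before the gene start and that of Rbl2, which lies on the opposite strand, 201 bases before it.
Rbl1, chr2:157204534-157204563, minus strand: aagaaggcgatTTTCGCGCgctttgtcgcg
Rbl2, chr8:91069844-91069873, plus strand: ggtctttttctcTTCAAAcgagccttctga

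From E10.5 to E19.5, the CIP/KIP inhibitor Cdkn1c and the pocket protein gene Rbl1 fell, the INK4 gene Cdkn2c and Rb1 rose, and Rgcc rose the most of the 10. Between E19.5 and young adult hearts 6 of the 10 genes fell, among them Cdkn2c and Rb1, and Ccng1 and Rgcc rose. Old adult hearts differed from young ones in Cdkn1a and Rb1, both higher. In E19.5 against E10.5, 5 of the 20 member probe sets were called higher and 7 lower, where 23.7% of all probe sets were called higher and 21.8% lower. In young adult against E19.5, 5 were higher and 7 lower, beside 13.6% and 15.5% of all. In young adult against E10.5, 7 were higher and 7 lower, beside 35.9% and 27.1%. These 3 comparisons share arrays, so that their counts are not independent. By lead probe sets they gave 3 genes higher and 3 lower, then 2 higher and 6 lower, then 3 higher and 4 lower. Markers of other cell types moved over the same stages. The summed level of 8 erythroid markers was 14.23 to 14.64 at E10.5 and 7.26 to 7.56 at E19.5, that of 6 leukocyte markers 6.18 to 6.68 and 8.32 to 8.57, and that of 7 fibroblast markers 12.05 to 12.23 and 13.69 to 13.94. Their part in the differences of the members was not tested.

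**Figure D1:**
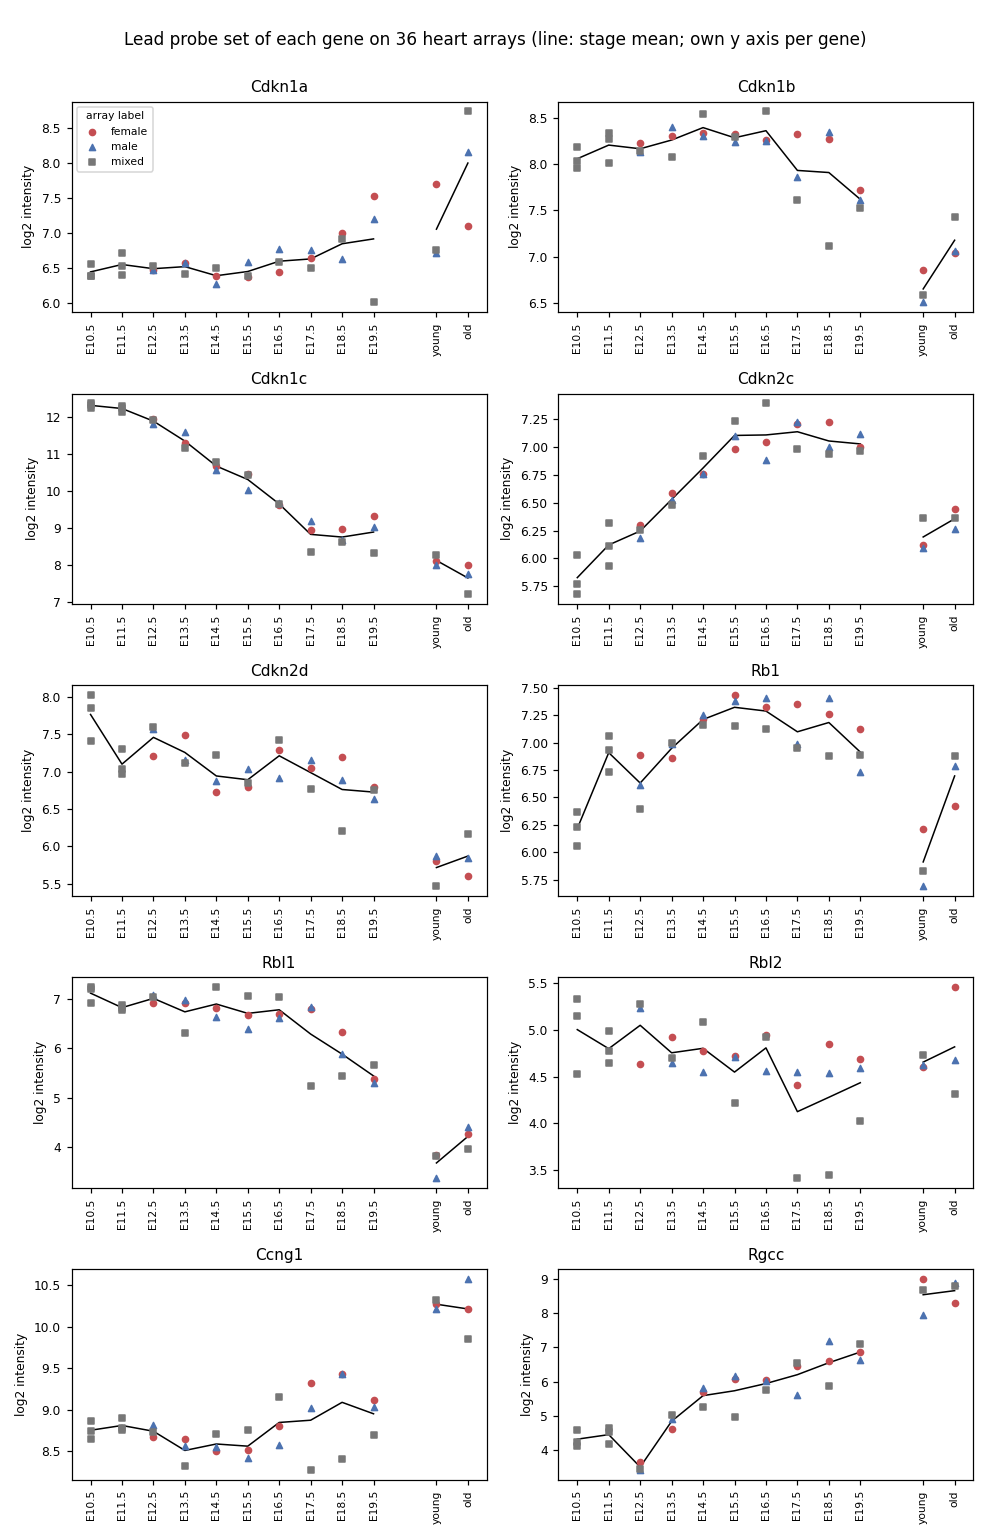
Log2 intensity of the lead probe set (y axis, own scale in each panel) on the 36 arrays by stage (x axis), with circles for female, triangles for male and squares for mixed arrays and a line through the stage means. Cdkn1c declines from 12.32 at the first day to 8.89 before birth, Cdkn2c rises from 5.83 to about 7.1 and falls again in adult hearts, and Rgcc climbs from 3.51 at E12.5 to 8.66 in old adult hearts.

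Among the CIP/KIP genes, Cdkn1c (probe set 1417649_at), which encodes p57, had the steepest course. Its 3 arrays read 12.33, 12.38 and 12.24 at E10.5. At E19.5 they read 9.33 (female), 9.02 (male) and 8.32 (mixed). In young adult hearts they read 8.10, 8.01 and 8.27, and in old adult hearts 7.99, 7.75 and 7.22, in the same order of labels. Every E10.5 array was thus higher than every E19.5 array, and every E19.5 array higher than every adult array. Day by day from E10.5 on, the stage means were 12.32, 12.23, 11.89, 11.35, 10.68, 10.31, 9.65, 8.83, 8.76 and 8.89, with SDs of 0.02 to 0.52 (n = 3). The decline was therefore close to level until E11.5, steep from E12.5 to E17.5 and level again up to birth.

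Cdkn1c fell by 3.42 ± 0.20 (SE) on the log2 scale between E10.5 and E19.5, a 10.7-fold change (adjusted p = 2.25e-14). From E19.5 to young adult it fell by 0.77 ± 0.20 (adjusted p = 0.00436). Between the ends, E10.5 and young adult, it fell by 4.19 ± 0.20, or 18.3-fold (adjusted p = 3.00e-17). In the order of levels, 8 of the 11 neighbouring pairs of stages had ranges of arrays that did not overlap. The pairs that overlapped were E10.5 with E11.5, E19.5 with E17.5, and E17.5 with E18.5. Over the 30 embryonic arrays the slope was -0.46 ± 0.02 per day (adjusted p = 4.62e-18), and it was -0.46 also within the 20 arrays before the change of title prefix. Without the E19.5 female array the difference between E19.5 and young adult was -0.55 and was no longer called (adjusted p = 0.0628), and it was -0.36 with the hybridization control level as a term (adjusted p = 0.243).

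Cdkn1b, which encodes p27, moved little in the embryo and fell after birth. At E10.5 its lead probe set, 1434045_at, read 7.96, 8.03 and 8.19, and at E19.5 7.72 (female), 7.62 (male) and 7.53 (mixed). In young adult hearts the values were 6.86, 6.51 and 6.59, below every embryonic array. Old adult hearts lay between E19.5 and young adult, at 7.04, 7.06 and 7.43. The means of the 10 embryonic stages, in order, were 8.06, 8.21, 8.17, 8.26, 8.40, 8.29, 8.36, 7.93, 7.91 and 7.62, with SDs of 0.05 to 0.69. The E18.5 mixed array, at 7.11, stood below the E18.5 female and male arrays, at 8.27 and 8.34.

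The difference of Cdkn1b between E10.5 and E19.5, -0.44 ± 0.21, was not called (adjusted p = 0.0799). It was called with sex label as a term, at -0.53 (adjusted p = 0.0431), and in a fit of these 2 stages alone (adjusted p = 0.0316), and it was 0.15 with the hybridization control level as a term (adjusted p = 0.775). From E19.5 to young adult it fell by 0.97 ± 0.21 (adjusted p = 4.71e-04), and from E10.5 to young adult by 1.41 ± 0.21, or 2.65-fold (adjusted p = 8.10e-07). With the hybridization control level as a term these differences were -0.50 and -0.35, and neither was called (adjusted p = 0.0802 and 0.524). In order of levels, the stages from E14.5, the highest, down to E19.5 overlapped from neighbour to neighbour, and E19.5, old adult and young adult were separate. A 2nd probe set of Cdkn1b, 1419497_at, had no stage mean above 5 and was called lower already from E10.5 to E19.5, at -0.74 ± 0.21 (adjusted p = 0.00423). The small embryonic slope of the lead, -0.04 ± 0.02 per day (adjusted p = 0.0445), became 0.05 within the arrays before the change of title prefix, where it was called in the opposite direction (adjusted p = 0.0103).

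Cdkn1a, which encodes p21, the inhibitor that p53 induces, moved little through the embryonic series and was more variable from E19.5 on. Its lead probe set, 1424638_at, read 6.38, 6.38 and 6.56 at E10.5. At E19.5 the female array read 7.53, the male 7.20 and the mixed 6.0, the lowest of all 36. In young adult hearts it read 7.69 (female), 6.71 (male) and 6.75 (mixed), and old adult hearts 7.10, 8.15 and 8.74. The ranges of E10.5 and E19.5, and those of young and old adult, overlapped. Embryonic stage means were 6.44, 6.54, 6.48, 6.51, 6.38, 6.44, 6.59, 6.62, 6.84 and 6.91. The SD was at most 0.19 up to E18.5, and it was 0.80 at E19.5, 0.56 in young adult and 0.83 in old adult hearts. All 11 pairs of neighbours in the order of levels overlapped.

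The embryonic slope of Cdkn1a, 0.04 ± 0.02 per day, was called (adjusted p = 0.0173). It was 0.06 without the mixed arrays of E17.5 to E19.5 (adjusted p = 8.90e-04), and the call was lost without the E19.5 female array (0.03, adjusted p = 0.0729) or male array (0.04, adjusted p = 0.0538) and within the arrays before the change of title prefix (0.01, adjusted p = 0.657). Neither E19.5 nor young adult hearts were called against E10.5. The differences were 0.47 ± 0.29 at E19.5 (adjusted p = 0.180) and 0.61 ± 0.29 in young adult hearts (adjusted p = 0.0660). Without the E19.5 mixed array the difference at E19.5 was 0.92 and was called (adjusted p = 0.00909), and both passed the test when arrays were centred on their median, at 0.81 and 1.14. The difference between E19.5 and young adult, 0.14 ± 0.29, was not called (adjusted p = 0.769).

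The INK4 genes moved in opposite directions before birth. Cdkn2c (lead 1416868_at), which encodes p18, read 5.68, 5.77 and 6.03 at E10.5 and 7.0 (female), 7.12 (male) and 6.97 (mixed) at E19.5. The young adult arrays read 6.12, 6.09 and 6.37, and old adult hearts 6.44, 6.26 and 6.37. No adult array reached the level of any E19.5 array. The embryonic means, from the first day to the last, were 5.83, 6.12, 6.25, 6.53, 6.81, 7.11, 7.11, 7.14, 7.06 and 7.03, with SDs of 0.05 to 0.26, and the last 5 lay within 7.03 to 7.14. The stages from E15.5 to E19.5 overlapped in the order of levels, and E19.5, E14.5 and E13.5 were separate from each other.

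Cdkn2c rose by 1.20 ± 0.13 between E10.5 and E19.5, or 2.30-fold (adjusted p = 1.32e-08), and fell by 0.84 ± 0.13 from E19.5 to young adult (adjusted p = 8.44e-06). The difference left between E10.5 and young adult was 0.37 ± 0.13 (adjusted p = 0.0173). That call was lost without either of 2 of the E10.5 arrays or without the young adult mixed array, with differences of 0.28 to 0.34 (adjusted p from 0.0571 to 0.0972), and in a fit of these 2 stages alone (adjusted p = 0.0838). The embryonic slope was 0.14 ± 0.01 per day over all embryonic arrays and 0.24 within those before the change of title prefix. Within the 10 later embryonic arrays it was -0.03 (adjusted p = 0.935). A 2nd probe set, 1439164_at, had no stage mean above 5. It was not called between E19.5 and young adult, where it read 0.41 higher (adjusted p = 0.0822).

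Cdkn2d (1416253_at), which encodes p19, declined. It read 7.85, 8.02 and 7.41 at E10.5 and 6.79 (female), 6.63 (male) and 6.76 (mixed) at E19.5. The young adult arrays read 5.81, 5.88 and 5.47 and the old adult arrays 5.61, 5.84 and 6.16, all below every embryonic array. From day to day the stage mean read 7.76, 7.10, 7.46, 7.25, 6.94, 6.89, 7.21, 6.99, 6.76 and 6.73, with SDs of 0.08 to 0.50. In the order of levels the only gap between neighbours was the one between E19.5 and the adult stages. Cdkn2d fell by 1.04 ± 0.20 before birth (adjusted p = 1.15e-04), by 1.01 ± 0.20 from E19.5 to young adult (adjusted p = 2.38e-04) and by 2.04 ± 0.20 in all, or 4.12-fold (adjusted p = 4.36e-10). The fall before birth was -0.47 with the hybridization control level as a term and was then not called (adjusted p = 0.185).

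Of the pocket proteins, Rbl1, which encodes p107, fell furthest. Its promoter window holds the E2F core printed above, whereas Rb1 had no window to search. A part of this core in the fall of Rbl1 was not tested. At E10.5 its lead probe set, 1424156_at, read 7.24, 7.19 and 6.91. At E19.5 it read 5.37 (female), 5.30 (male) and 5.65 (mixed). The young adult values were 3.85, 3.38 and 3.83, and old adult hearts 4.28, 4.41 and 3.97, with no overlap between any of these 4 stages. Over the 10 embryonic days the means were 7.11, 6.82, 7.01, 6.73, 6.89, 6.70, 6.78, 6.29, 5.88 and 5.44, with SDs of 0.05 to 0.91. The E17.5 mixed array, at 5.24, stood below the female and male arrays of that day, at 6.79 and 6.83.

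Rbl1 fell by 1.67 ± 0.27 between E10.5 and E19.5, or 3.18-fold (adjusted p = 1.19e-05). It fell by a further 1.76 ± 0.27 to young adult (adjusted p = 7.80e-06), and by 3.42 ± 0.27 in all, or 10.7-fold (adjusted p = 4.52e-12). The other 2 probe sets were called lower in the same direction from E10.5 to E19.5 and from E10.5 to young adult, and 1 of the 2 from E19.5 to young adult. Before the change of title prefix the slope of the lead was -0.05 per day and was not called (adjusted p = 0.135), against -0.15 ± 0.02 over all embryonic arrays (adjusted p = 4.49e-06). With the hybridization control level as a term, the difference between E10.5 and E19.5 was -0.61 and was not called (adjusted p = 0.101). This level and stage cannot be told apart in that comparison, and what part the level has in the result was not tested.

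Rb1, the founding pocket protein gene, rose early and fell after birth. At E10.5 its lead probe set, 1417850_at, read 6.23, 6.05 and 6.36, and at E11.5 6.73, 7.06 and 6.94, with no overlap. At E19.5 it read 7.13 (female), 6.73 (male) and 6.89 (mixed). The 3 young adult arrays read 6.22, 5.69 and 5.83, and old adult hearts 6.42, 6.79 and 6.88. The 10 embryonic means were 6.22, 6.91, 6.63, 6.95, 7.21, 7.32, 7.29, 7.10, 7.18 and 6.91, with SDs of 0.05 to 0.28. From the highest stage, E15.5, down to E12.5 all neighbours in the order of levels overlapped, and E10.5 and young adult, the lowest, overlapped with each other and stood apart from the rest.

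Rb1 rose by 0.70 ± 0.16 between E10.5 and E19.5, or 1.62-fold (adjusted p = 9.08e-04), and fell by 1.00 ± 0.16 from E19.5 to young adult (adjusted p = 1.41e-05). Its step from E10.5 to E11.5, 0.69 ± 0.16, was as large as the difference over the whole embryonic series within its SE, and was called (adjusted p = 0.0186). Young adult and E10.5 hearts differed by -0.31 ± 0.16, which was not called (adjusted p = 0.102). It turned to 0.14 under quantile normalization and 0.22 under centring, and it was called at -0.40 with sex label as a term (adjusted p = 0.0344) and at -0.46 without the young adult female array (adjusted p = 0.0251). The other probe set, 1444400_at, stayed at stage means of 2.17 to 2.55 and was called in none of the 4 stage comparisons.

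Rbl2, which encodes p130, the pocket protein of resting cells, had no called difference in the 4 stage comparisons on the deposited values. Its lead probe set, 1425981_a_at, read 5.15, 5.33 and 4.53 at E10.5 and 4.69 (female), 4.59 (male) and 4.03 (mixed) at E19.5. In young adult hearts it read 4.6, 4.63 and 4.73 and in old adult hearts 5.45, 4.68 and 4.32, so that all 4 stages overlapped. In order of day, the embryonic means were 5.00, 4.80, 5.05, 4.75, 4.80, 4.55, 4.81, 4.13, 4.28 and 4.43, with SDs of 0.15 to 0.74, and all neighbours in the order of levels overlapped. The stage mean was above 5 at E12.5 only, at 5.05, and just below it at E10.5. The differences were -0.57 ± 0.30 between E10.5 and E19.5 (adjusted p = 0.121) and -0.35 ± 0.30 between E10.5 and young adult (adjusted p = 0.313). The first was called with sex label as a term, at -0.78 (adjusted p = 0.0302), and without the lowest E10.5 array, at -0.80 (adjusted p = 0.0470), and turned to 0.43 with the hybridization control level as a term (adjusted p = 0.432). Under that same term the difference between E19.5 and young adult, 0.22 ± 0.30 as deposited, was 1.02 and called (adjusted p = 0.00728). The slope, -0.08 ± 0.02 per day (adjusted p = 0.00274), was called. It was -0.04 and still called without the mixed arrays of E17.5 to E19.5 (adjusted p = 0.0318), which read 3.42, 3.45 and 4.03, each the lowest of its stage. With the hybridization control level as a term it was 0.006 (adjusted p = 0.917), and those 3 arrays had control levels of 12.01, 11.56 and 11.39, each the highest of its stage. The mixed label and a high control level cannot be told apart in these arrays. The part of either in the slope was not tested.

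**Figure D2:**
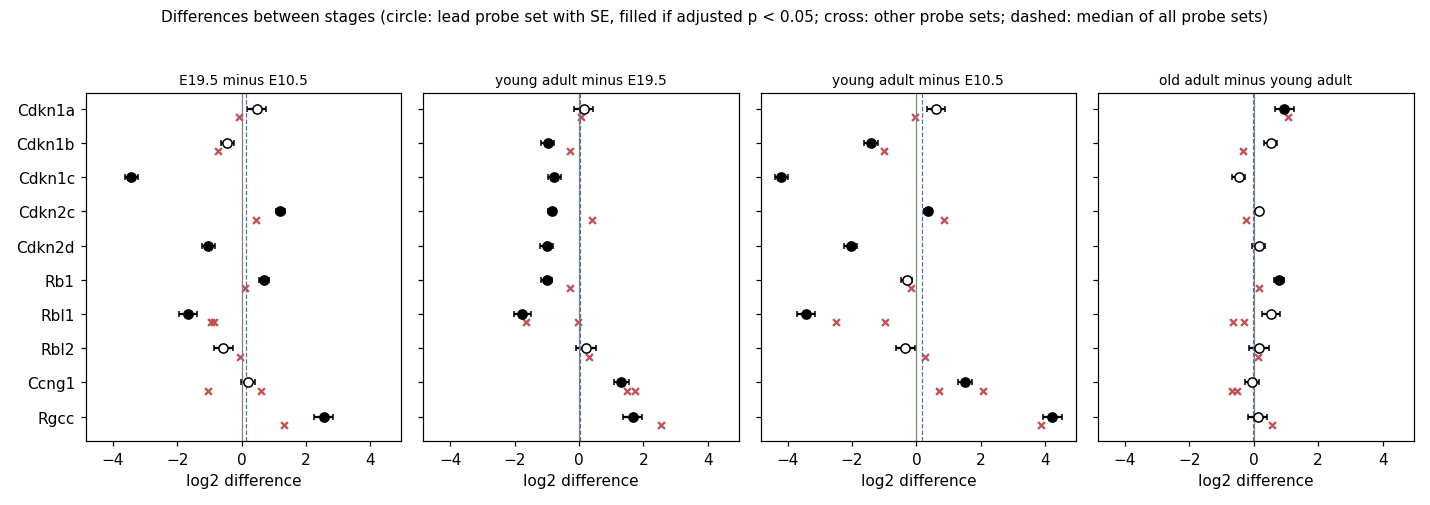
Log2 difference (x axis) of each gene (y axis) in the 4 stage comparisons, later minus earlier. Circles with SE are lead probe sets, filled where the adjusted p was under 0.05, crosses are the other probe sets of the gene, and the dashed line is the median of all probe sets; Cdkn1c and Rbl1 lie furthest left and Rgcc furthest right in young adult minus E10.5.

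Ccng1, which encodes cyclin G1 and is a target of p53, rose after birth. Its lead probe set, 1420827_a_at, read 8.87, 8.74 and 8.65 at E10.5 and 9.12 (female), 9.03 (male) and 8.70 (mixed) at E19.5, which overlapped. Adult values were higher, with young adult arrays at 10.28, 10.21 and 10.33 and old adult arrays at 10.22, 10.57 and 9.85, all above every embryonic array. The embryonic series of means was 8.75, 8.81, 8.74, 8.51, 8.59, 8.56, 8.85, 8.88, 9.09 and 8.95, with SDs of 0.06 to 0.59 over the 12 stages. The break between the adult stages and E18.5 was the only one in the order of levels. At E17.5 and E18.5 the mixed arrays, at 8.28 and 8.41, lay below the female and male arrays, which read 9.03 to 9.43.

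From E19.5 to young adult, Ccng1 rose by 1.32 ± 0.22, or 2.49-fold (adjusted p = 2.46e-05), and all 3 of its probe sets were called higher. Before birth the probe sets disagreed. The lead differed by 0.20 ± 0.22 between E10.5 and E19.5 and was not called as deposited (adjusted p = 0.468), but it was called at 0.59 under quantile normalization (adjusted p = 0.00762) and at 0.54 after centring (adjusted p = 0.0132). In the same comparison, on the deposited values, 1450017_at fell by 1.05 ± 0.24 (adjusted p = 6.49e-04), and 1450016_at was 0.59 ± 0.32 higher, which was not called (adjusted p = 0.124). Per embryonic day the slopes of these 2 were -0.08 ± 0.02 and 0.09 ± 0.02, both called. From E10.5 to young adult all 3 were higher, by 0.69 to 2.08. Which transcripts of Ccng1 each probe set reads is not given in the sources used here.

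**Figure D3:**
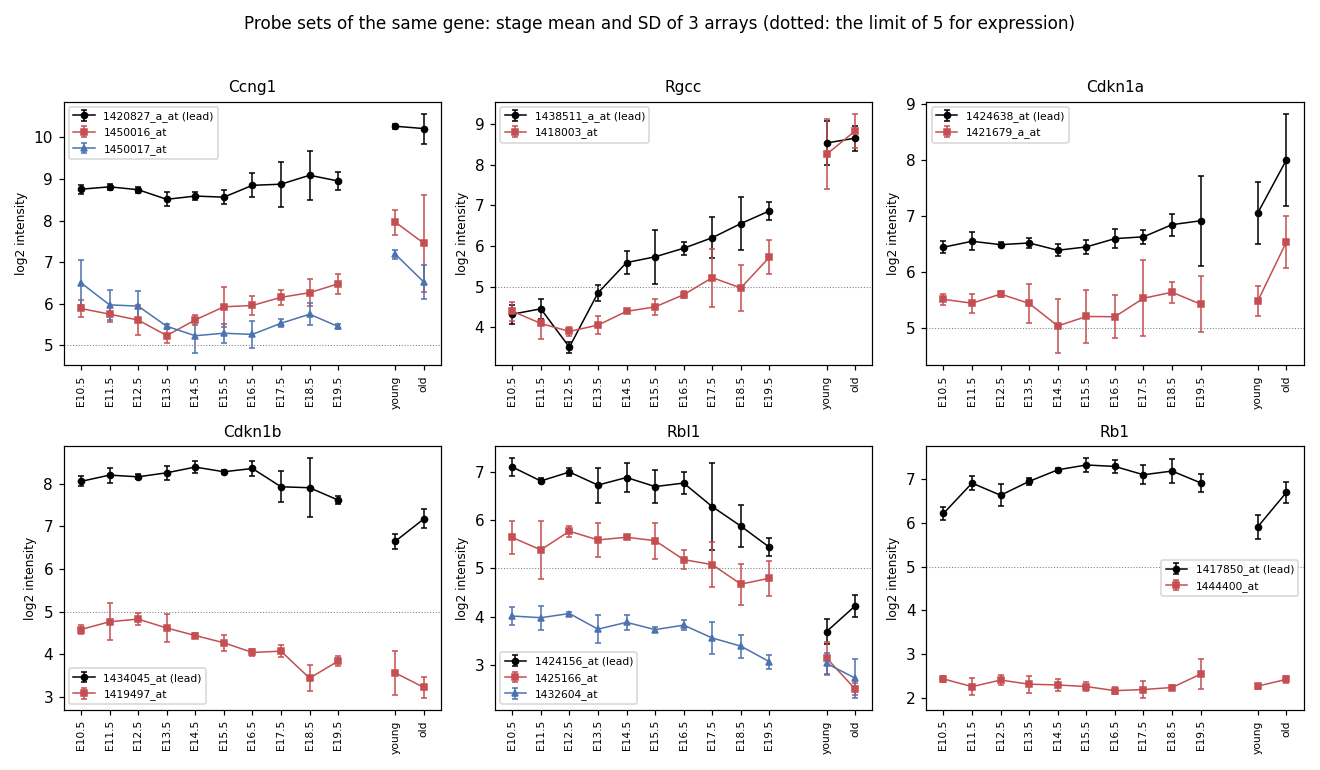
Stage mean and SD of 3 arrays, log2 intensity (y axis) by stage (x axis), for the probe sets of 6 genes; the dotted line marks the limit of 5 for expression. The 3 Ccng1 probe sets part before birth and are all higher in young adult hearts, both Rgcc probe sets rise, and the 2nd Rb1 probe set stays between 2.17 and 2.55.

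Rgcc, which encodes a p53-inducible regulator of CDK1 that is known from endothelial cells, had the widest range of the 10 genes, 5.15 between its lowest and highest stage mean. Its lead probe set, 1438511_a_at, read 4.13, 4.24 and 4.59 at E10.5 and 3.67 (female), 3.42 (male) and 3.44 (mixed) at E12.5, without overlap. At E19.5 it read 6.86, 6.64 and 7.10. The young adult arrays were at 9.0, 7.94 and 8.68, and the old adult arrays at 8.30, 8.89 and 8.78. Every adult array was above every embryonic array. Its embryonic means were 4.32, 4.45, 3.51, 4.85, 5.59, 5.74, 5.95, 6.21, 6.55 and 6.87, with SDs of 0.14 to 0.67. From E13.5 on each stage mean was higher than the one before. In the order of levels there were gaps between E12.5 and E10.5, between E13.5 and E14.5 and between E19.5 and the adult stages.

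Rgcc rose by 2.54 ± 0.30 between E10.5 and E19.5, or 5.83-fold (adjusted p = 3.88e-08). It rose by 1.67 ± 0.30 from E19.5 to young adult (adjusted p = 4.59e-05) and by 4.22 ± 0.30 in all, or 18.6-fold (adjusted p = 2.02e-13). Its 2nd probe set, 1418003_at, rose by 1.33 ± 0.32, 2.53 ± 0.32 and 3.86 ± 0.32 in the same comparisons, all called. The E10.5 means of the lead and of this probe set, 4.32 and 4.40, lay below 5, the level taken as expressed. The slope of the lead was 0.33 ± 0.03 per day (adjusted p = 1.05e-10), and 0.34 within the arrays before the change of title prefix (adjusted p = 7.62e-05). The summed level of 8 endothelial markers ranged over 9.51 to 10.03 on the E10.5 arrays, 9.91 to 10.68 on those of E19.5 and 10.80 to 11.00 on the young adult arrays. Of these 8 markers 4 rose and 1 fell from E10.5 to E19.5, and 4 rose and none fell from there to young adult. Their part in the rise of Rgcc was not tested. At E10.5, E11.5 and E12.5, where Rgcc read 4.32, 4.45 and 3.51, the mean of that sum was 9.80, 9.69 and 9.79. From E13.5 to E18.5, over which the Rgcc mean rose at each stage, the sum was 9.49, 9.50, 9.42, 9.71, 9.60 and 9.76. At E19.5 its mean was 10.42.

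Few steps of 1 day were called. Over the 9 steps and 20 probe sets, 2 calls were made, both for lead probe sets: Rb1 from E10.5 to E11.5 and Rgcc from E12.5 to E13.5, where it rose by 1.34 ± 0.30 (adjusted p = 0.0236). Both stage means of this Rgcc step, 3.51 and 4.85, lay below 5, the level taken as expressed. The 2nd Rgcc probe set, 1418003_at, differed by 0.16 ± 0.32 from E12.5 to E13.5 and was not called (adjusted p = 0.876). The share of all probe sets called was 2.53% from E10.5 to E11.5, 0.0976% to E12.5, 1.25% to E13.5, 0.0599% to E14.5, 0.0377% to E15.5, 0.0111% to E16.5, 0.0133% to E17.5, 0% to E18.5 and 1.33% to E19.5. Some uncalled steps were larger than that of Rb1: Cdkn1c differed by -0.82 ± 0.20 from E16.5 to E17.5 (adjusted p = 0.241) and the Rgcc lead by -0.94 ± 0.30 from E11.5 to E12.5 (adjusted p = 0.609). The 2nd Rgcc probe set differed by -0.20 ± 0.32 from E11.5 to E12.5 and was not called. In the 7 steps without a call in limma, 1 to 3 of the 20 member probe sets had an unadjusted p under 0.05. The share of all probe sets at that threshold was not computed. Over all embryonic days 7 member probe sets rose and 9 fell by slope, where 42.1% of all probe sets rose and 25.4% fell.

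With the stricter limits of the study's methods (adjusted p under 1e-05, an absolute log2 difference above 2 and a stage mean above 5), 2 member probe sets passed in E19.5 against E10.5, those of Cdkn1c and the Rgcc lead, beside 2.18% of all probe sets. In young adult against E19.5, 1 passed, the 2nd Rgcc probe set, beside 1.45%. In young adult against E10.5, 7 passed, beside 6.53%: Cdkn1c, Cdkn2d, 2 of Rbl1, both of Rgcc and 1450016_at of Ccng1. None passed between old and young adult, beside 0.00665% of all probe sets. In limma 7 of the 20 had an unadjusted p under 0.05 there, for which the share of all probe sets was not computed.

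Between young and old adult hearts 3 of the 20 probe sets were called higher and 0 lower in limma, beside 3.83% and 3.13% of all probe sets. At an unadjusted p under 0.05, 4 were higher and 3 lower, and the shares of all probe sets at that threshold were not computed. Rb1 rose by 0.79 ± 0.16, or 1.72-fold (adjusted p = 0.00341), and its 3 old adult arrays, given above, were all higher than its 3 young adult arrays. Arrays of the same sex label differed by 0.20 (female), 1.10 (male) and 1.06 (mixed). Without any 1 of the 6 arrays the call held. It was lost when only the 6 adult arrays were fitted (adjusted p = 0.163).

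Cdkn1a rose by 0.95 ± 0.29, or 1.93-fold, by its lead probe set (adjusted p = 0.0433). Its 2nd probe set, 1421679_a_at, rose by 1.05 ± 0.29 (adjusted p = 0.0236). On the 2nd, young adult hearts read 5.60 (female), 5.18 (male) and 5.66 (mixed) and old adult hearts 6.0, 6.80 and 6.79, with no overlap. The lead was 0.59 lower in the old than in the young female array and higher by 1.44 and 1.99 in the male and mixed arrays. Its call was lost without the young adult male or mixed array or without the old adult male or mixed array, where the difference ranged from 0.57 to 0.87 (adjusted p from 0.134 to 0.249). Under quantile normalization it was 0.74 (adjusted p = 0.0919), under centring 0.80 (adjusted p = 0.0648), and with the hybridization control level as a term 0.84 (adjusted p = 0.147), and in a fit of the 6 adult arrays the adjusted p was 0.322.

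The other 8 genes had no call between the adult ages on the deposited values. Cdkn1b differed by 0.53 ± 0.21 (adjusted p = 0.113). Cdkn1c differed by -0.47 ± 0.20, which was not called as deposited (adjusted p = 0.156) but was called at -0.59 under quantile normalization (adjusted p = 0.0318) and at -0.62 after centring (adjusted p = 0.0307). With the hybridization control level as a term Cdkn1c was called at -0.80 (adjusted p = 0.0226). The Ccng1 lead differed by -0.06 ± 0.22 as deposited (adjusted p = 0.909) and was called at -0.62 with that term (adjusted p = 0.0276). For Rbl1 the probe sets pointed in different directions, at 0.53 ± 0.27 for the lead and -0.64 ± 0.27 for 1425166_at, neither called. Leukocyte markers were higher in old adult hearts: 3 of 6 were called higher, and their summed level was 9.98 to 10.50 against 9.65 to 9.75 in young adult hearts. The sum of endothelial markers was 11.18 to 11.88 against 10.80 to 11.00, with 2 of 8 called higher. Smooth muscle markers were lower, with 3 of 4 called and a summed level of 10.83 to 11.19 against 11.55 to 11.98, and 2 of 7 fibroblast markers were called lower. The part of these lists in the differences of Cdkn1a and Rb1 was not tested.

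**Figure D4:**
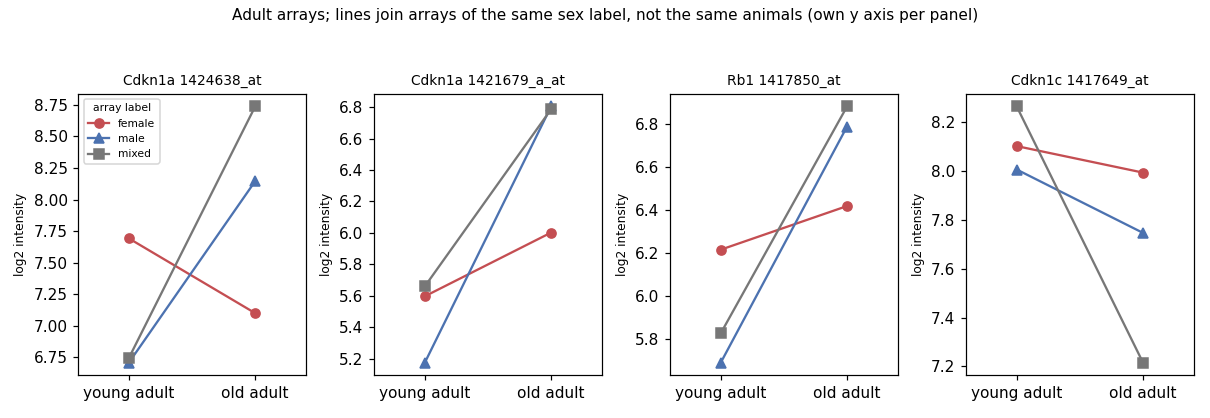
Log2 intensity (y axis, own scale in each panel) of young and old adult arrays for both Cdkn1a probe sets, the Rb1 lead and Cdkn1c. Lines join arrays of the same sex label and not the same animals; Rb1 and the 2nd Cdkn1a probe set are higher in the old array of each label, whereas the Cdkn1a lead is lower in the old female array (7.10 against 7.69).

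The sexes were set against each other within stage, in 9 pairs of a male and a female array, without E12.5. None of the 20 probe sets was called in limma, beside 0.0488% of all probe sets called. At an unadjusted p under 0.05 there were 2 of the 20, and the share of all probe sets at that threshold was not computed. One was 1450016_at of Ccng1, 0.54 ± 0.15 higher in male arrays (8 of 9 pairs, adjusted p = 0.447). The other was the Rbl2 lead, which was lower in male arrays by a log2 difference of -0.21 ± 0.09 (male higher in 2 of 9 pairs, adjusted p = 0.603). The largest difference of the other 9 leads was that of Rbl1, at -0.14 ± 0.08. Whether the sexes differed by another amount in adult than in embryonic hearts was tested as an interaction. It called none of the 20 in limma, beside 0.548% of all probe sets called. At an unadjusted p under 0.05 there were 3, again without a computed share of all probe sets.

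The leads were compared with each other across the 12 stage means. Of the 45 pairs of genes, 9 had a Pearson correlation above 0.8 and 8 one below -0.8. Cdkn1b, Cdkn2d and Rbl1 were among the first, with r = 0.96 between Cdkn1b and Rbl1 and 0.94 between Cdkn2d and Rbl1. Ccng1 ran against Cdkn1b (r = -0.94) and Rbl1 (r = -0.94), and Rgcc against Cdkn1c (r = -0.94). Cdkn2c and Rb1, which rose before birth and fell after it, had r = 0.80 with each other. Rbl2 had no r above 0.8 or below -0.8 with any other gene. The points share the same 36 arrays and a common trend with age, and the values are given as a description. Between probe sets of 1 gene, r with the lead was 0.93 or more for both other sets of Rbl1, 0.92 for Rgcc, 0.87 for Cdkn1a and 0.71 for Cdkn1b, and it was 0.24 for Rbl2, 0.18 for Cdkn2c and -0.40 for Rb1.

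The genes with the most similar stage means were looked up among 13177 probe sets with a symbol, a stage mean above 5 and a span above 1. For Cdkn1c they included Phax (r = 0.994) and Nap1l1 (r = 0.992). For Rbl1 they were Zwilch (r = 0.995), which acts at kinetochores, Nupl1 (r = 0.995) and Hirip3 (r = 0.994). For Rgcc they included Gpr116 (r = 0.985) and Pde4dip (r = 0.984), and for Ccng1 they were Twf2 (r = 0.994), Gatad1 (r = 0.993) and Klf9 (r = 0.988). Cdkn2c went with Acadl, an enzyme of fatty acid oxidation (r = 0.984), Zdhhc17 (r = 0.982) and Fli1, an endothelial transcription factor (r = 0.979). The nearest to Rb1 was Pcif1 (r = 0.982), to Cdkn1b Rbm25 (r = 0.998), to Cdkn2d Nelfcd (r = 0.990) and to Cdkn1a Ripk1 (r = 0.976). These values rest on 12 stage means that share a trend with age, and they are a description.

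Lists of related genes were also followed, with 1 lead probe set a gene. Beside their counts, 23.7% of all probe sets were called higher and 21.8% lower from E10.5 to E19.5. From E19.5 to young adult these shares were 13.6% and 15.5%. Of 14 cyclins and CDKs, 11 fell from E10.5 to E19.5 and 0 rose in limma, also at an unadjusted p under 0.05, with a median log2 difference of -1.18 beside 0.15 for all probe sets and -0.21 for those with a stage mean above 5. From E19.5 to young adult 9 fell (median -0.66 beside 0.04 and -0.13) and again 0 rose at either threshold. Cdk1, the mitotic kinase, had a mean of 8.93 ± 0.24 (SD, n = 3) at E10.5, fell to 7.05 by E19.5 and reached 4.19 in young adult hearts, and its partner Ccnb2 went from 7.61 to 5.41 and 2.95 over the same stages. Cdk6, a target of INK4 proteins, read 7.34 at E10.5 and 7.65 at E19.5, fell to 6.34 in young adult hearts and was 0.96 higher in old ones (adjusted p = 6.66e-04), the only 1 of the 14 called between the adult ages. Ccnb1 by its lead probe set never exceeded a stage mean of 4.17 and fell by 0.66 from E10.5 to young adult.

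Of 20 proliferation genes and E2F targets 19 fell from E10.5 to E19.5 (median -2.02), with 0 called higher in limma and 1 at an unadjusted p under 0.05. From there to young adult 16 fell (median -1.44), with 0 higher at either threshold. Bub1, a spindle checkpoint kinase, fell by 5.37 and Rrm2, a subunit of ribonucleotide reductase, by 5.01 between E10.5 and young adult. At the other end, Tyms fell by 2.39 and Mcm6 by 2.87. Between the adult ages 0 of the 20 were called in limma, with 1 higher and 3 lower at an unadjusted p under 0.05, and after centring 2 were called lower.

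Of 16 E2F factors and DREAM subunits, 9 fell and 3 rose before birth (median -0.60), and 8 fell and 2 rose after it (median -0.48). E2f8 fell by 3.97 and E2f3 by 3.76 from E10.5 to young adult. E2f5, which partners with pocket proteins as a repressor, rose by 1.06 and E2f4 by 0.89, the latter with no stage mean above 4.47. Of 9 genes of inhibitor turnover and INK4 partners, 6 fell and 1 rose before birth (median -1.08), and 5 fell and 1 rose after it (median -0.54). Cks1b, whose product is a cofactor of the ubiquitin ligase SCF-Skp2, and its paralogue Cks2 fell by 4.70 and 5.33 from E10.5 to young adult. Fbxw7, which targets cyclin E, rose by 1.37, and the INK4 gene Cdkn2a by 0.83, with no stage mean of Cdkn2a above 3.30.

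Of 19 p53 genes and targets, 3 rose and 8 fell before birth (median -0.27), and 5 rose and 1 fell after it (median 0.23). All probe sets with a stage mean above 5 had medians of -0.21 before birth and -0.13 after it. Fas rose by 3.63 and Sesn1 by 2.27 from E10.5 to young adult, and Zmat3 and Mdm4 fell by 1.54 and 0.90. The median of the p53 list before birth turned positive under quantile normalization and centring, at 0.13 and 0.08, with 5 and 6 higher and 6 lower in each. In old against young adult hearts, where Cdkn1a rose, 1 of the 19 rose (Zmat3, by 0.72) and 2 fell (Trp53, by 0.69, and Bbc3, by 0.48). These 3 were named after their values were seen.

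Of 10 imprinted neighbours of Cdkn1c, 5 fell and 2 rose before birth, which became 2 and 5 under centring (median 0.07). The median as deposited was -0.27, beside -0.21 for all probe sets with a stage mean above 5. From E19.5 to young adult 4 fell (median -0.40 beside -0.13), with 0 higher in limma and 1 at an unadjusted p under 0.05. H19 and Igf2 read 11.07 and 10.20 at E19.5 and fell by 5.63 and 2.74 from there to young adult, whereas Cdkn1c had made most of its fall by E17.5. Kcnq1 rose by 1.55 before birth. Of 8 FOXO factors and targets, 1 rose and 3 fell before birth (median -0.14 beside -0.21). After it 2 rose and 1 fell (median 0.14 beside -0.13). Before birth 4 rose and 1 fell under centring (median 0.20), and the median was 0.10 under quantile normalization. Pik3ip1 rose by 1.53 and Klf15 by 1.43 from E10.5 to young adult, while Ccng2, a relative of Ccng1, fell by 1.13 and Foxo3 by 0.45.

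**Figure D5:**
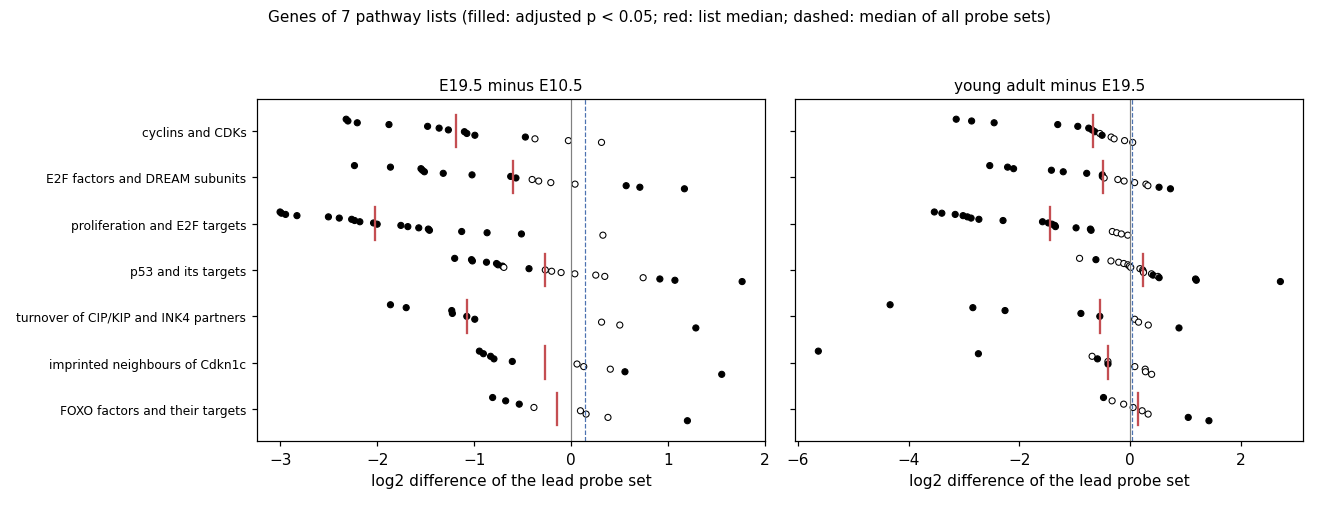
Log2 difference of the lead probe set (x axis) for the genes of 7 lists (y axis), E19.5 minus E10.5 on the left and young adult minus E19.5 on the right; filled points passed an adjusted p of 0.05, red bars are list medians and the dashed line is the median of all probe sets. Most proliferation genes and cyclins lie left of 0 in both panels, with medians of -2.02 and -1.18 before birth.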

How the data were processed

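Hearts of OF1 mice were measured on Affymetrix whole-genome mouse arrays. The authors made the deposited log2 intensities by robust multi-array average (background correction, quantile normalization and summary per probe set); the submitters' processing notes also name Affymetrix Expression Console and Partek 6.6. The values were used without further scaling, and the number of arrays, 3 a stage, limits the precision. Symbols come from the deposited table; 589 probe sets with damaged symbols were restored through their gene IDs, and 6937 carry no gene ID. By the study's methods, mixed samples from E12.5 on held hearts of both sexes, and so of more than 1 animal; their number is not given in the sources used here.

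Stages were compared in R 4.3.3 with limma 3.58.1, in 1 model of 12 stage means on all 36 arrays and 45101 probe sets (prior degrees of freedom 6.96), with Benjamini-Hochberg adjustment within each comparison. Embryonic slopes used 30 arrays. Sexes were compared on 18 arrays with stage as a block, leaving out E12.5 as the study's methods do. Differences are later minus earlier, with the SE of the model; SDs are over 3 arrays. The model was tested on simulated data. Members and lists were chosen with earlier results of these data known. Named were all 10 members by lead probe set, the 3 most similar genes for each member with a span above 1 (in part printed, and some are not reported here), and from each list up to 4 called genes at both ends of young adult minus E10.5; others are marked. Alternatives were other scalings, a filter on low values, other moderation, covariates, fewer arrays and leaving out single arrays.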

Additional observations from a re-analysis of the deposited data

How the results depend on the processing

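Counts of called members moved with the scaling. After centring on the array median, which was 0.34 lower at E19.5 than at E10.5, 9 member probe sets were higher in E19.5 against E10.5, in place of 5. With the hybridization control level as a term, 3 in place of 7 were lower there, 5 in place of 9 fell by slope, and 1 in place of 3 was higher and 3 in place of 0 were lower in old against young adult hearts. Quantile normalization and centring each gave 2 lower in that comparison, and a fit of the 6 adult arrays gave 0 higher. Leaving out single arrays gave 1 to 3 higher and 0 to 1 lower in it. The cause was not tested. Shares of all probe sets called were computed for the main fits only. The counts of this section therefore have no share over all probe sets beside them and are not a result about the members.

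Slopes within the arrays before the change of title prefix (chosen after seeing the data) gave 4 falling in place of 9. The 10 later arrays gave 0 rising and 0 falling, over 4 days, with slopes of -0.029 for Cdkn2c and -0.11 for Rb1. The earlier arrays gave 0.052 for Cdkn1b and -0.020 for Ccng1.

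Differences that changed sign were all uncalled as deposited, except the slopes of Cdkn1b, Rbl2, Cdkn2c and Rb1. For E19.5 against E10.5 the hybridization control term gave 0.15 for Cdkn1b and 0.43 for Rbl2. For young adult against E19.5, Cdkn1a ranged from -0.31 (without the E19.5 mixed array) to 0.45 over the fits without 1 array, and was -0.18 without the young adult female array. For young adult against E10.5, Rb1 was 0.14 under quantile normalization and 0.22 under centring, and Rbl2 was 0.18 under centring and 1.45 with the control term, where it was called (adjusted p = 0.0185). For old against young adult hearts the control term gave -0.21 for Cdkn2d, -0.14 for Rbl1 and -0.47 for Rbl2. There Rgcc was -0.029 under quantile normalization and -0.024 under centring. Over the fits without 1 array, Rgcc ranged from -0.18 (without the young adult male array) to 0.35, Rbl2 from -0.16 (without the old adult female array) to 0.41, and Ccng1 from -0.24 to 0.12 (without the old adult mixed array). Slopes turned to 0.0037 for Cdkn1b under quantile normalization and to 0.0055 for Rbl2 with the control term. Of the values of single genes and the counts at the stricter limits, over all alternatives, 819 kept their direction and their side of the threshold, 48 lost a call, 29 gained one or moved up, and these 22 changed sign. No paired analysis was possible by replicate number, because array numbers in the titles run on from stage to stage. With sex label as a term, which blocks stages from E12.5 on by label, the differences of Cdkn1b (-0.53) and Rbl2 (-0.78) between E10.5 and E19.5 and of Rb1 between E10.5 and young adult (-0.40) gained a call, and no call of a lead was lost.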
